A study of Mus musculus with 6 samples.

Results

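Serine/arginine-rich (SR) splicing factors were followed in the hearts of mouse fetuses whose mothers had breathed filtered air or aerosolised nano-sized titanium dioxide (nano-TiO2). The 10 genes were taken by name: Srsf1, Srsf2, Srsf3, Srsf4, Srsf5, Srsf6, Srsf7, Srsf10, Srsf11 and Tra2a, out of 35458 genes with a matched transcript. They hold 85 of the 115685 matched transcripts, and all 10 passed the filter on low counts. Each of the 6 libraries was made from input RNA, without antibody, of a pool of FVB/NJ wild-type fetal hearts of both sexes, 3 pools from sham dams and 3 from exposed dams. Dams were 10 weeks old and inhaled in a whole-body chamber from gestational day 5, with 6 sessions of 360 min each that did not fall on consecutive days and spanned 8 days. Hearts were taken on gestational day 15. The sham group received filtered air and the exposed group a target concentration of 12 mg/m3 nano-TiO2. How many litters stood behind a pool is not given in the sources used here, so p-values measure the spread between these pools only.

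SR proteins bind pre-mRNA through an RNA recognition motif and recruit the spliceosome through a domain of repeated arginine and serine residues. Kinases of the SRPK and CLK families phosphorylate that domain and so govern where the proteins reside and what they do. Most SR genes also limit their own output: they contain a poison exon, or an intron that can be kept, which brings in a premature stop codon and sends the transcript to nonsense-mediated decay (NMD), while transcripts with a kept intron often stay in the nucleus. In the developing heart, SR proteins are known for splicing the messages of calcium-handling and sarcomere proteins.

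For 6 members the exon that holds the premature stop of an NMD transcript was read from GENCODE M21, which is drawn on GRCm38. These stretches are shown because each one holds the stop codon that marks the decaying form, and in every gene but Srsf6 its bases are in no coding transcript. Each line runs from the first base of the exon to the stop codon, which stands in capitals.
Srsf3: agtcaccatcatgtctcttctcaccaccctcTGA
Srsf7: gtttcttcgtttgagtcagtcgcctTGA
Srsf11: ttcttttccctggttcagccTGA
Tra2a: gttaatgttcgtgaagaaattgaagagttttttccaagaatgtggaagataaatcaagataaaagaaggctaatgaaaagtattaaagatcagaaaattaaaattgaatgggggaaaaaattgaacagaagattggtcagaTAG
Srsf4: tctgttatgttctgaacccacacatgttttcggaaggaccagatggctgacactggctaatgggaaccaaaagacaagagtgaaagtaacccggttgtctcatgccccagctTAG
Srsf6: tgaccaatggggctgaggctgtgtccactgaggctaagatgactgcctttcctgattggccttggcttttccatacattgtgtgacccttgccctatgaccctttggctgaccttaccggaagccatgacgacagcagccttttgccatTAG

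The Srsf3 exon is exon 4 of ENSMUST00000037776, 456 bases at chr17:29039454-29039909 on the plus strand, with its stop codon 31 bases in. The Srsf7 exon is exon 4 of ENSMUST00000234503, 460 bases at chr17:80204622-80205081 on the minus strand, with 25 bases before the stop. The Srsf11 exon (exon 4 of ENSMUST00000126716, minus strand) lies at chr3:158024123-158024231, and the Tra2a exon (exon 2 of ENSMUST00000203820, minus strand) at chr6:49252803-49253108. The Srsf4 exon (exon 2 of ENSMUST00000129966, plus strand) lies at chr4:131884276-131884482, and the Srsf6 exon (exon 3 of ENSMUST00000017065, plus strand) at chr2:162932815-162933082, where the printed bases also belong to a transcript annotated as coding and the bases found only outside coding transcripts start at 162932980. The exons differ in length and composition: 20 bases of the Srsf11 exon and 149 of the Srsf6 exon precede the stop, and GC content ran from 30.1% in Tra2a to 51.3% in Srsf3. The main unproductive form of Srsf5 keeps an intron, and Srsf10 has neither an NMD nor a retained-intron transcript.

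Estimated reads per library ran from 12881945 to 22720009. The cardiomyocyte markers (9 of 9 measured) summed to between 29118 and 33054 TPM (transcript abundance scaled for length and library total) in sham and between 35394 and 40472 in exposed libraries, with 1 of 9 higher and 4 lower by edgeR. The erythroid markers (9 of 9) summed to between 187343 and 369269 TPM in sham and between 124913 and 203746 in exposed libraries, with 6 of 9 lower and 0 higher by edgeR. Hepatocyte markers (8 of 8) summed to 917 TPM in sham 2 and to at most 85.8 TPM in the others. Lung epithelium markers (5 of 5) summed to 2629 TPM in nano-TiO2 3, 606 in nano-TiO2 2, 185 in sham 1 and at most 21.3 in the others, and 4 of them were listed at 0 in at least 1 library. Neural markers (5 of 5) stayed between 1.23 and 10.7 TPM. The part of these cells in the results below was not tested, and in bulk tissue fewer cells of a type and less RNA per cell cannot be told apart.

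Srsf1, Srsf5, Srsf11 and Tra2a were higher in the exposed hearts by 1.51- to 1.83-fold, and none of the 10 was called lower. These 4 stand against 15.5% of all 13930 tested genes called higher and 12.8% called lower (edgeR's quasi-likelihood test, Benjamini-Hochberg adjusted p under 0.05). The other 6 did not pass the test. Gene reads sum coding and unproductive transcripts alike. By Salmon's split, the coding share averaged 81.1% in sham and 66.8% in exposed libraries for Srsf5, and 78.9% and 62.6% for Tra2a. The rise of these genes is thus not one of coding reads alone. For Srsf1 and Srsf11 the coding shares of the groups overlapped. The median log2 change of the 10 members was 0.25, beside -0.01 over all tested genes.

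Srsf1, a classical SR protein that promotes inclusion of exons and has roles outside splicing, stood at 30.2, 37.0 and 26.6 CPM (reads of a gene at a common library size, TMM-scaled) in the 3 sham libraries and at 56.8, 46.6 and 67.8 in the exposed ones. The groups did not overlap, and the log2 change was 0.87 ± 0.19 (SE, n = 3 per group; edgeR adjusted p = 0.0141). Srsf5, another classical member, read 84.4, 79.1 and 74.6 CPM in sham and 140.5, 116.4 and 117.5 in exposed libraries. Every exposed library lay above every sham library (log2 change 0.65 ± 0.13, edgeR adjusted p = 0.0109).

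Srsf11, an SR-related protein of nuclear speckles, had 66.2, 61.7 and 48.8 CPM in sham and 102.0, 100.0 and 104.9 in exposed libraries. The exposed values were the tightest of all members, with an SD of 2.49 CPM, and lay above all sham values (log2 change 0.80 ± 0.14, edgeR adjusted p = 0.00874). Tra2a, the mammalian relative of the fly sex-determination factor transformer-2, read 25.05, 29.6 and 28.4 CPM in sham and 44.8, 39.1 and 41.4 in exposed libraries. Its groups were also apart (log2 change 0.60 ± 0.14, edgeR adjusted p = 0.0187).

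The remaining classical members gave no call. Srsf2, whose loss in heart muscle causes dilated cardiomyopathy, had 36.2, 58.5 and 28.0 CPM in sham and 55.1, 49.7 and 65.9 in exposed libraries (log2 change 0.48 ± 0.26, edgeR adjusted p = 0.191). Sham 2 alone lay among the exposed values, and without it Srsf2 passed the test (log2 change 0.84, edgeR adjusted p = 0.0447). Leaving out the library that overlaps the other group favours a call, so that fit adds no support. It called 1028 of all 14518 genes higher and 425 lower. Srsf4 read 100.4, 85.2 and 82.1 CPM in sham and 68.6, 79.5 and 67.1 in exposed libraries, so that all exposed libraries were below all sham libraries, yet the test was not passed (log2 change -0.32 ± 0.13, edgeR adjusted p = 0.110). For groups that do not overlap, the members counted 4 above and 1 below out of 10, beside 23.3% and 22.4% of all tested genes.

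The 4 genes left had log2 changes between -0.22 and 0.02 and overlapping groups. Srsf3, which couples splicing to export of the message, averaged 201.2 ± 22.4 CPM (SD, n = 3) in sham and 184.4 ± 5.93 in exposed libraries (log2 change -0.13 ± 0.12, edgeR adjusted p = 0.462). Srsf7, the SR protein with a zinc knuckle, averaged 237.1 ± 30.1 and 203.0 ± 20.6 CPM (edgeR adjusted p = 0.251), Srsf6 149.0 ± 13.1 and 150.7 ± 13.4 (0.936), and Srsf10, which represses splicing when it loses its phosphates, 83.1 ± 19.8 and 79.2 ± 11.5 (0.810). Exons of Srsf2 overlap Mettl23 and Mfsd11 on the other strand, those of Srsf4 overlap Gm12992 and those of Srsf1 overlap Gm11508, and no source used here states that counting used the strand.

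**Figure D1:**
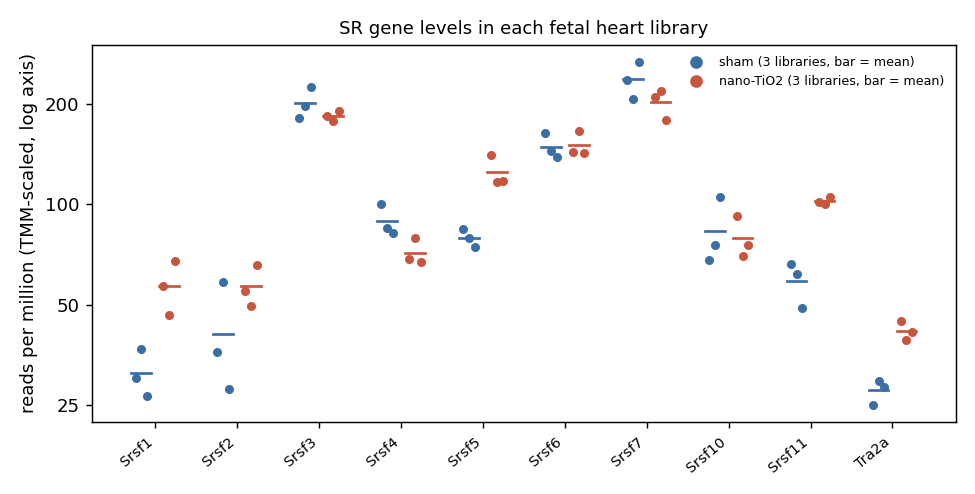
Level in CPM (TMM-scaled, log axis) of the 10 SR genes, with 1 point per library and a bar at the mean of the 3 libraries of each group. Srsf1, Srsf5, Srsf11 and Tra2a have all exposed points above all sham points, and Srsf4 has all of them below under this scaling (its log2 change was 0.10 with library totals).

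None of the 4 gene-level calls held after correction for length and GC content or without 2 of the libraries. Once the dependence of counts on transcript length and GC content had been fitted and removed per library, 0 of 10 members passed (log2 changes of 0.30 for Srsf1, 0.38 for Srsf5, 0.62 for Srsf11 and 0.21 for Tra2a), and all-gene calls were 47 higher and 125 lower in place of 2154 and 1781 (1232 higher and 1536 lower without adjustment for multiple tests, 2 and 4 members among them). With sham 2 and nano-TiO2 3 both left out, whose liver and lung marker sums were highest, 0 of 10 members and 0 of 14021 genes passed in edgeR. By raw p under 0.05, 5 members and 2239 genes were then higher and 0 members and 1111 genes lower, and the log2 changes were 0.90, 0.73, 0.85 and 0.69 for Srsf1, Srsf5, Srsf11 and Tra2a. Without nano-TiO2 3 alone, Srsf1 (edgeR adjusted p = 0.0563) and Tra2a (0.0624) missed the threshold, and Tra2a also missed it without sham 1 (0.0539) or nano-TiO2 1 (0.0732).

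Scaling by library totals in place of TMM moved the median log2 change of all genes by 0.41, with 4270 genes higher and 50 lower. Srsf2 then joined the 4 calls, and Srsf3 (log2 change 0.29), Srsf4 (0.10), Srsf7 (0.19) and Srsf10 (0.34) turned positive, each below the all-gene median. Upper-quartile scaling gave 2424 higher and 1311 lower over all genes and called the same number of members, 4.

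Per unit of transcript length, Srsf7 was the most abundant member in sham hearts, at 141.1 ± 34.8 TPM (SD, n = 3), and its range did not touch that of the next gene. Srsf3 (68.9 TPM), Srsf6 (52.5), Srsf5 (42.9), Srsf10 (40.7), Srsf11 (39.2) and Srsf4 (37.7) followed, each overlapping its neighbour in that order. Srsf2 stood apart below them at 25.9 ± 3.72 TPM, and Tra2a (11.1 ± 1.23) and Srsf1 (9.43 ± 1.66) were lowest and overlapped. In the exposed hearts Srsf11 was second by mean TPM, where it had been sixth in sham. TPM values of the groups are not set against each other here, because the haemoglobin share differed between libraries.

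The share of reads that Salmon placed on retained-intron or NMD transcripts, out of those plus coding transcripts, lay above every sham library in all 3 exposed libraries for Srsf3, Srsf5, Srsf7 and Tra2a, but none of the 9 members with such transcripts passed the test across 4201 genes. That test, limma on the log2 ratio of unproductive to coding reads, called 0.0238% of genes higher and 0.0% lower, and by raw p under 0.05 it had 648 genes higher and 132 lower, 4 members higher and 0 lower among them. An edgeR test of class by group called 0 members and 0 genes (3 members and 671 genes higher, 0 and 84 lower, by raw p). The median log2 ratio change of the 9 members was 0.55, beside 0.36 over all tested genes.

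For Srsf3 the share was 28.8%, 23.9% and 18.7% in sham and 54.4%, 50.2% and 45.5% in exposed libraries. The lowest exposed library was well above the highest sham library (log2 ratio change 1.70 ± 0.24, limma adjusted p = 0.0920). For Srsf5 it was 16.5%, 14.5% and 19.4% in sham and 34.4%, 35.6% and 24.5% in exposed libraries (1.18 ± 0.27, limma adjusted p = 0.125). For Tra2a it was 25.3%, 19.7% and 18.4% against 34.4%, 43.6% and 34.3% (1.16 ± 0.28, limma adjusted p = 0.134). For Srsf7 the values were 8.59%, 13.04% and 11.3% in sham and 17.2%, 16.8% and 13.5% in exposed libraries, where the groups nearly met (0.62 ± 0.23, limma adjusted p = 0.236).

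Srsf6 went the other way in these estimates, with 41.9%, 43.6% and 42.7% in sham and 37.0%, 41.1% and 37.3% in exposed libraries (-0.26 ± 0.14, limma adjusted p = 0.368). Srsf1, Srsf2, Srsf4 and Srsf11 had overlapping groups and log2 ratio changes between -0.19 and 0.55. Groups lay apart for 4 members above and 1 below, of 9, beside 22.0% and 4.71% of all tested genes. Centred on each library's median ratio, 0 members passed limma (3 higher and 1 lower by raw p), beside 0.0238% of genes higher and 0.0476% lower, and Srsf3 had a change of 1.295.

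**Figure D2:**
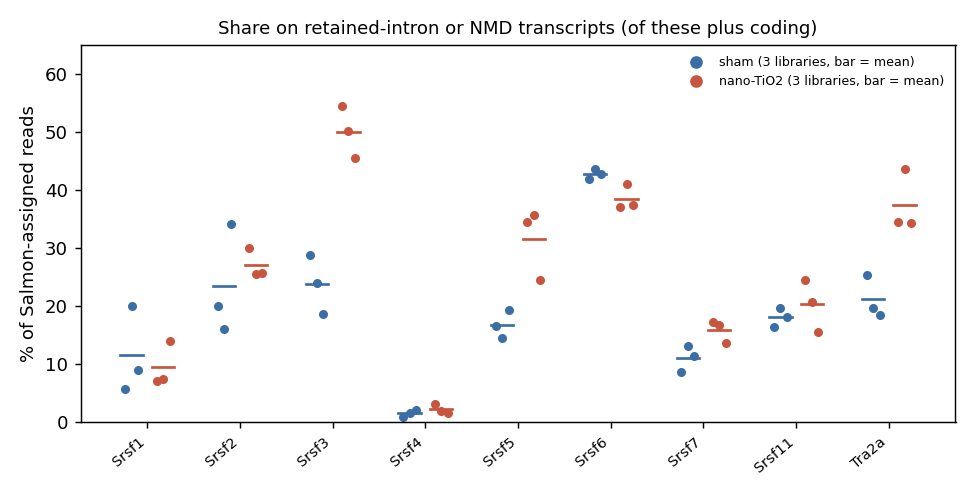
Percent of Salmon-assigned reads on retained-intron or NMD transcripts, of these plus coding transcripts, for the 9 SR genes that have such transcripts, with 1 point per library and a bar at each group mean. By Salmon's split, Srsf3 moves from a mean of 23.8% in sham to 50.0% in exposed libraries and Srsf6 from 42.7% to 38.5%. Read density on the Srsf3 poison exon was lower, at 6.28% of that on coding exons in sham and 14.6% in exposed libraries.

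Both classes were also taken apart. Taken alone, retained-intron reads gave 1 call among 7 members, for Srsf3 (log2 ratio change 1.78 ± 0.24, limma adjusted p = 0.0332), where 1.07% of 3366 genes were called higher and 0.0594% lower. Their ratio to coding reads lay above sham in every exposed library for Srsf2, Srsf3, Srsf5, Srsf6, Srsf7 and Tra2a, 6 of 7 members, beside 28.5% of genes above and 3.77% below. Bin reads on bases outside coding transcripts, set against coding bases, gave calls for Srsf2, Srsf3, Srsf5, Srsf6, Srsf7 and Tra2a, 6 of 8 members, beside 26.3% of 1895 genes called higher and 2.06% lower. Taken alone, NMD reads gave 0 calls among 8 members and 0 among 1409 genes with limma (1 member higher and 1 lower, 46 genes higher and 57 lower, by raw p under 0.05), with a median change over the members of -0.04. Within that class Srsf3 had the largest change of the members (1.71 ± 0.33, limma adjusted p = 0.238), while Srsf6 (-0.44) and Srsf11 (-0.71) were negative.

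At the level of single transcripts, 3 retained-intron forms of SR genes were higher in exposed hearts and none was lower among 53 tested, beside 0.921% of 30409 transcripts called higher and 1.1% called lower by edgeR. Of these 3, the Srsf7 form was listed at 0 reads in every sham library. It passed the low-count filter through the exposed libraries only, so its call adds no support. The main retained-intron transcript of Srsf5, ENSMUST00000153056, had 237.7, 140.9 and 252.0 estimated reads in sham and 714.8, 593.8 and 597.4 in exposed libraries. Each exposed library exceeded each sham library, in reads and in CPM (log2 change 1.56 ± 0.22, edgeR adjusted p = 0.0475). Its main coding transcript, ENSMUST00000094693, changed by 0.35 ± 0.17 and was not called (edgeR adjusted p = 0.284). ENSMUST00000204013, a retained-intron transcript of Tra2a, had 122.2, 73.5 and 89.2 reads in sham and 227.1, 219.4 and 311.1 in exposed libraries (log2 change 1.32 ± 0.20, edgeR adjusted p = 0.0475). The main Tra2a coding transcript ENSMUST00000031841 changed by 0.19 ± 0.22 (edgeR adjusted p = 0.690).

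The third call, ENSMUST00000235036 of Srsf7, was listed at 0 reads in every sham library and at 172.4, 181.5 and 276.8 in exposed libraries, at least 64.1-fold higher against a floor of 3 reads per library (edgeR adjusted p = 0.0475). It shares 1896 bases with ENSMUST00000234889, from which it differs by 25 and 2 bases. The split between the pair, and with it the fold above, is therefore uncertain. Together the pair had 17.7, 21.8 and 21.9 CPM in sham and 31.7, 33.0 and 18.7 in exposed libraries, which overlap.

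For Srsf3, coding and unproductive transcripts stood on opposite sides without passing the edgeR test. The only coding transcript, ENSMUST00000130216, had 2713, 1967 and 3534 reads in sham and 1377, 1387 and 2477 in exposed libraries (log2 change -0.77 ± 0.17, edgeR adjusted p = 0.0650). The NMD transcript with the poison exon, ENSMUST00000037776, had 897, 475 and 499 reads in sham and 1173, 1037 and 1530 in exposed libraries (0.91 ± 0.20, edgeR adjusted p = 0.0672). After TMM scaling, the coding form was below and the NMD form above sham in all 3 exposed libraries.

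The main coding transcripts of Srsf1 (ENSMUST00000139129, log2 change 1.13 ± 0.23, edgeR adjusted p = 0.0613) and Srsf11 (ENSMUST00000072875, 0.83 ± 0.17, 0.0581) lay close to the threshold, with exposed libraries above sham. Those of Srsf2 (ENSMUST00000092404), Srsf4 (ENSMUST00000053819), Srsf6 (ENSMUST00000130411), Srsf7 (ENSMUST00000063417) and Srsf10 (ENSMUST00000126641) changed by between -0.36 and 0.34. The leading unproductive transcripts of Srsf1 (ENSMUST00000134824), Srsf2 (ENSMUST00000176834), Srsf4 (ENSMUST00000134943), Srsf6 (ENSMUST00000017065), Srsf7 (ENSMUST00000234889) and Srsf11 (ENSMUST00000126716) changed by between -0.35 and 0.55, none of them called. In each fit without 1 of the 6 libraries, and with sham 2 and nano-TiO2 3 both out, edgeR called 0 of all transcripts, members included (10 to 14 member transcripts higher and 3 to 6 lower by raw p). Over the fits without 1 library the log2 change ran from 1.40 to 1.73 for the Srsf5 form ENSMUST00000153056 and from 1.23 to 1.44 for the Tra2a form ENSMUST00000204013.

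The deposited bins hold reads by position along a gene, not split between overlapping transcripts, although their displacement was estimated against the coverage that Salmon implies. Relative to the rest of their gene, 0 of 510 bins of SR genes passed limma (16 higher and 14 lower by raw p under 0.05), beside 0.00205% of 244177 bins called higher and 0.00614% called lower. Bins were therefore also summed over introns and poison exons: runs of bases found in a retained-intron or NMD transcript and in no coding transcript. Of 12 such stretches in SR genes with at least 10 reads on average, 6 were higher relative to the exons of the main coding transcript in exposed hearts and 0 were lower, but 0 of 12 passed once each library was centred on its median over all genes' stretches. Stretches of 1 gene are set against the same coding exons, so the 12 are not independent: Srsf3, Srsf7 and Srsf11 gave several each. The 6 calls lay in Srsf3 (several adjacent stretches), Srsf5, Srsf11 and Tra2a. Across 1896 stretches of all genes, 20.3% were called higher and 1.79% lower by limma, and the median log2 change was 0.54, beside 1.04 over the 12.

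The poison exon of Srsf3, the exon whose first bases are printed above, was covered at 7.41%, 5.89% and 5.55% of the density on coding exons in sham and at 16.9%, 14.5% and 12.2% in exposed libraries. All exposed values exceeded all sham values (log2 change 1.20 ± 0.28, limma adjusted p = 0.00870). The introns on either side of it moved with it: the 829-base intron before it went from 2.198% ± 0.751 to 5.21% ± 1.344 (SD, n = 3; limma adjusted p = 0.0239), and the 756-base intron after it from 2.54% ± 0.608 to 6.47% ± 0.980 (limma adjusted p = 0.00880). The intron before it missed the threshold without sham 2, nano-TiO2 1 or nano-TiO2 2 (limma adjusted p = 0.0800, 0.121 and 0.0855). The poison exon thus stood above its flanking introns in both groups. Retained-intron transcripts such as ENSMUST00000147265 also hold its bases, so its coverage cannot be read as inclusion of the poison exon alone. Salmon placed a mean of 17.6% of the gene's reads in sham and 36.1% in exposed libraries on NMD transcripts. The size of the Srsf3 share above is therefore not matched by the coverage of its poison exon, although both were higher in exposed libraries.

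In Srsf5 the stretch of 1229 bases at chr12:80947866-80949094 carried the change. Its first bases are shown with 12 exon bases before them, and the first pair of intron bases in capitals:
Srsf5: gtcagctggcagGTttgttgaaatacagtt
The intron was covered at 10.9%, 8.79% and 13.2% of coding density in sham and at 25.4%, 25.6% and 16.5% in exposed libraries. Nano-TiO2 3 was the lowest of the exposed libraries and still above all sham libraries (log2 change 1.03 ± 0.24, limma adjusted p = 0.00952).

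The Tra2a stretch of 3595 bases at chr6:49260243-49263837 is held by the retained-intron transcript ENSMUST00000204013. It is called the Tra2a intron below, although it may be only a part of a longer one. It was covered at 13.4%, 10.8% and 8.19% in sham and at 20.7%, 24.2% and 21.1% in exposed libraries (log2 change 1.047 ± 0.24, limma adjusted p = 0.00788). Coverage was not even along it: the first 1000 bases stood at 24.7% ± 2.68 in sham and 45.3% ± 8.65 in exposed libraries, and the remaining 2575 bases in whole bins at 5.61% ± 2.62 and 13.03% ± 0.687. The poison exon of Tra2a lies further downstream and had fewer than 10 reads per library on average, so it was not tested.

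In Srsf7 the 460-base poison exon was covered at 10.5%, 20.3% and 17.3% of coding density in sham and at 26.7%, 27.6% and 21.3% in exposed libraries. The groups did not overlap, but the test was not passed (log2 change 0.69 ± 0.26, limma adjusted p = 0.0687), nor was it for the introns of 180 and 234 bases beside it (0.80 and 0.87, limma adjusted p = 0.0799 and 0.0644). Without sham 2, the highest sham library here, the poison exon passed (0.89, limma adjusted p = 0.0404). That choice of library favours a call, and the fit called 316 of all 1896 stretches higher and 14 lower. The Srsf7 exon was the most heavily covered poison exon of the members, at 16.0% ± 5.00 of coding density in sham and 25.2% ± 3.37 in exposed libraries. The introns beside it stood at 11.7% and 9.68% in sham and at 20.7% and 17.3% in exposed libraries. Retained-intron transcripts also hold its bases, so this coverage cannot be read as inclusion of the poison exon alone. Salmon's estimate for its NMD form ENSMUST00000234503 changed by -0.46 ± 0.45 (log2).

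One intron of Srsf11, of 1267 bases, was higher in exposed hearts (2.75% ± 0.629 against 6.44% ± 2.22, limma adjusted p = 0.0474), a call lost when any library but sham 1 or nano-TiO2 3 was left out (limma adjusted p from 0.0661 to 0.202), while its introns of 2027 and 763 bases had overlapping groups (log2 changes 0.38 and 0.24). The Srsf2 intron of 686 bases had 3.90%, 1.73% and 11.4% in sham and 14.6%, 12.5% and 10.5% in exposed libraries. Sham 3 reached into the exposed range, and the test was not passed (log2 change 1.49 ± 0.52, limma adjusted p = 0.0510). Without sham 3 it was passed (2.18, limma adjusted p = 0.00318), but leaving out the overlapping library favours a call. That fit called 317 of all 1896 stretches higher and 28 lower. Groups lay apart in 9 of 12 stretches, all above, beside 35.1% of stretches above and 4.91% below over all genes.

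Other annotated poison exons were too thinly covered to test. That of Srsf4 had 3.83 reads per library on average, at 3.38% of coding density in sham and 3.98% in exposed hearts, and the 109-base exon of Srsf11 had 4.33 reads. For Srsf6, the bases of that exon outside coding transcripts are held by the NMD form and by the retained-intron transcript ENSMUST00000193611. They had 2.17 reads per library and between 0% and 9.24% of coding density, although Salmon placed 39.7% ± 0.361 of the gene's sham reads on that NMD transcript. The Srsf6 share above therefore does not match the coverage of its poison exon. The bin reads of Srsf6 outside coding transcripts gave a log2 ratio change of 1.25, of the opposite sign, but from few reads, above all in sham.

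**Figure D3:**
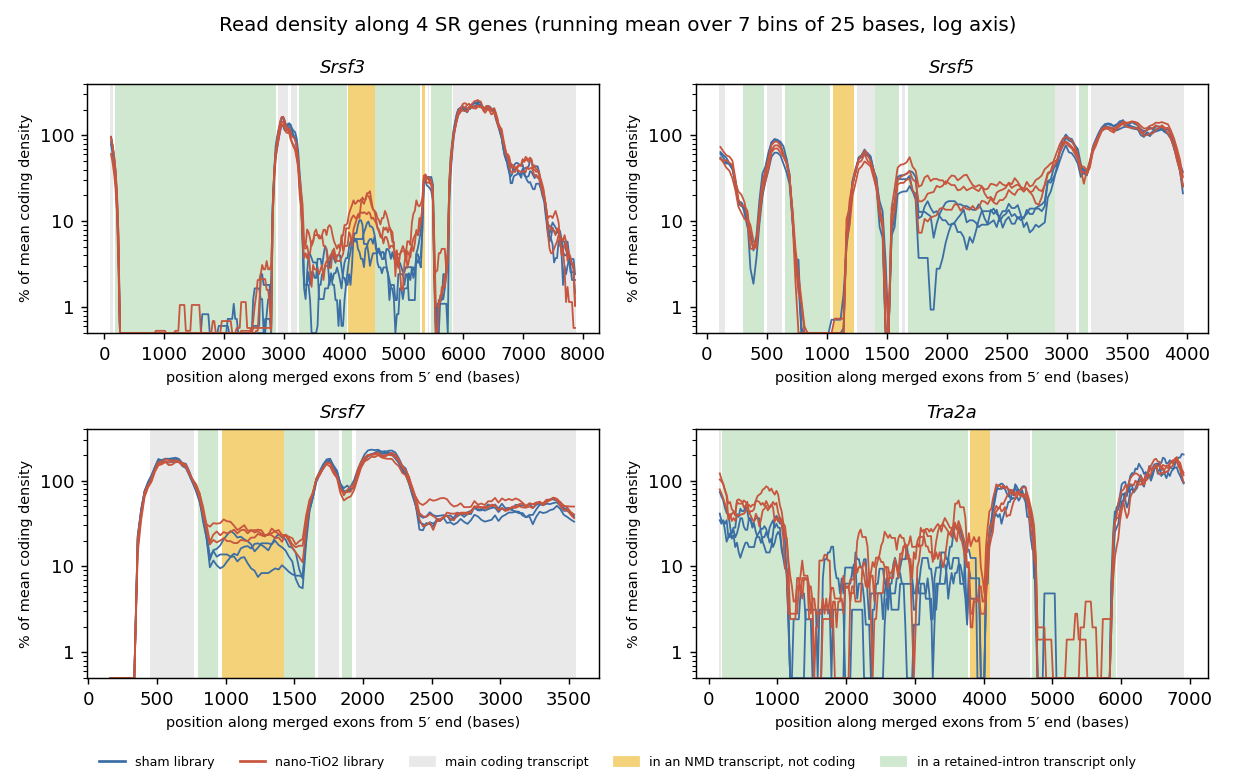
Read density along the merged exons of Srsf3, Srsf5, Srsf7 and Tra2a, from the 5′ end, as a percent of the mean density on the main coding transcript (log axis, values under 0.5% drawn at 0.5%), with 1 line per library and a running mean over 7 bins of 25 bases. Exposed lines run above sham lines over the Srsf3 poison exon (6.28% against 14.6%), the long Srsf5 intron (10.96% against 22.5%) and the Tra2a intron (10.8% against 22.0%), with all lines scaled to coding exons.

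**Figure D4:**
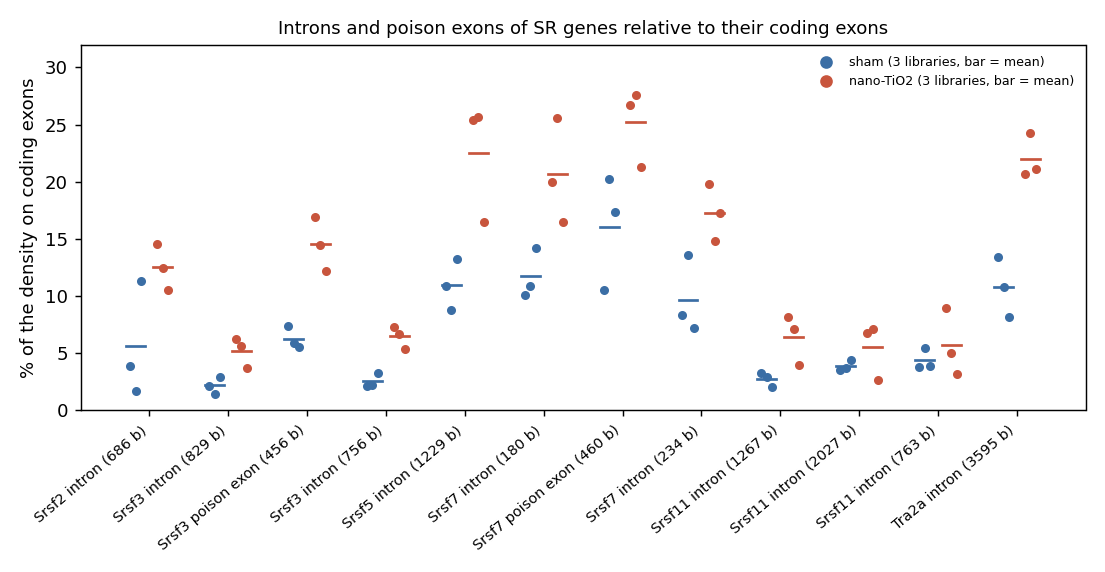
Density of the 12 tested introns and poison exons of SR genes as a percent of the density on coding exons of the same gene, with 1 point per library and a bar at each group mean. The Srsf7 poison exon is the highest in sham (16.0%), and the Srsf5 and Tra2a introns reach means of 22.5% and 22.0% in exposed libraries.

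Stretches of other genes were shifted in the same direction. When each library's ratios were centred on its median over all 1896 stretches, 0 of the 12 stretches of SR genes passed limma (2 higher and 0 lower by raw p under 0.05), calls over all genes were 5.8% higher and 6.17% lower, and the Srsf3 poison exon had a log2 change of 0.66 ± 0.29 (limma adjusted p = 0.127). Without nano-TiO2 1 the Tra2a intron was the only call among the 12, and with sham 2 and nano-TiO2 3 both out the Srsf5 intron was, with the Srsf3 poison exon at log2 changes of 1.08 and 1.28 (limma adjusted p = 0.0592 and 0.0517).

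**Figure D5:**
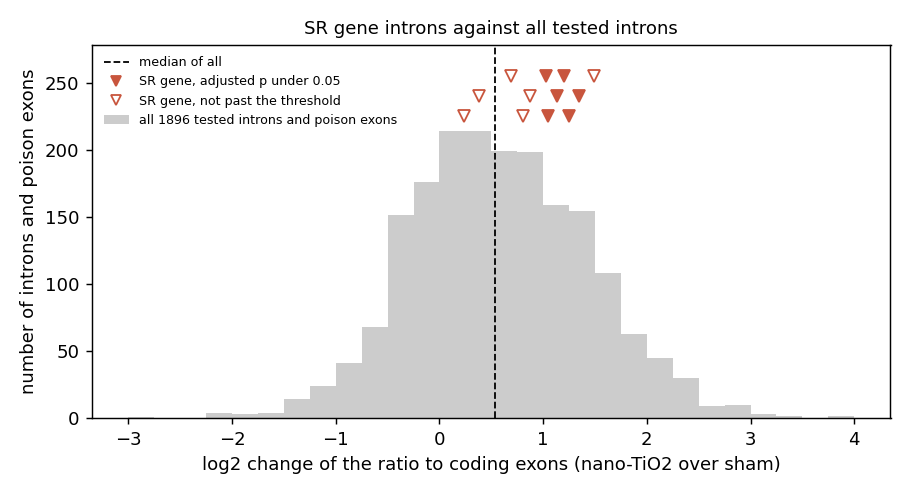
Number of tested introns and poison exons of all genes by their log2 change relative to coding exons (grey bars, 1896 in all), with triangles for the 12 of SR genes, filled where the adjusted p was under 0.05. The dashed line is the median of all at 0.54, and 10 of the 12 triangles lie to its right.

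Genes that act with the SR proteins were read from lists chosen by function, whose counts stand beside 15.5% of all tested genes higher and 12.8% lower. Of 16 SR-related and speckle proteins, 7 were higher and 0 lower by edgeR (median log2 change 0.44); Rbm25, which binds splice-regulatory RNA in speckles, went from 39.4 ± 2.61 to 76.7 ± 11.6 CPM (log2 change 0.96 ± 0.15, edgeR adjusted p = 0.00736). Of 10 SR protein kinases and import factors, 4 were higher and 1 lower. Dyrk1a, a kinase that phosphorylates splicing factors among other targets, had 18.8, 19.1 and 19.3 CPM in sham and 44.2, 35.0 and 47.0 in exposed libraries (1.14 ± 0.16, edgeR adjusted p = 0.00630). Srpk3, the muscle-specific SR kinase, was lower (90.7 ± 4.80 against 63.8 ± 5.59 CPM, log2 change -0.51 ± 0.12, edgeR adjusted p = 0.0196, but 0.18 on the log2(TPM + 1) scale). It kept its call in 1 of the 6 fits that left out a library, the one without nano-TiO2 2.

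Of 18 NMD and exon junction genes, 3 were higher and 4 lower, with a median log2 change of 0.11. Magohb, a core subunit of the exon junction complex with a near-identical paralog in Magoh, was lower (21.6 ± 2.06 against 12.7 ± 1.39 CPM, edgeR adjusted p = 0.0141); Magoh was also lower, and the division of reads between the pair is uncertain. The Magohb call was lost without sham 2, nano-TiO2 1 or nano-TiO2 3 (edgeR adjusted p from 0.0567 to 0.0626).

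Of 19 hnRNPs and other regulators with unproductive transcripts, 10 were higher and 0 lower (median 0.41). Tia1, which promotes use of weak splice sites, went from 24.96 ± 1.84 to 51.9 ± 3.64 CPM (log2 change 1.06 ± 0.14, edgeR adjusted p = 0.00630). Of the other 3 SR proteins, Srsf12 was called higher at very low levels (0.146 against 0.720 CPM, edgeR adjusted p = 0.0315, a call kept in 1 of 6 fits without a library, that without sham 1) and Srsf9 and Tra2b were not called. Of 5 transcripts known as splicing targets in heart, 2 were higher, with Camk2d, a calcium-dependent kinase with developmentally spliced forms, at 72.7 ± 12.4 against 143.4 ± 32.5 CPM (log2 change 0.98 ± 0.19, edgeR adjusted p = 0.0114). After correction for length and GC content, none of Rbm25, Dyrk1a, Srpk3, Magohb, Tia1, Srsf12 and Camk2d passed.

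The members' mean standardised profile over the 6 libraries was followed most closely by Srsf5 (r = 0.96) and Tra2a (r = 0.95) among themselves and ran against Srsf4 (r = -0.78). Among 6294 other genes averaging 20 CPM or more, those most like it were Cul4a (r = 0.996), Hnrnpr (0.99), Fam98a (0.99), Hmcn1 (0.99) and Abi2 (0.99). These correlations describe 6 libraries that share 2 groups, and the 5 genes had log2 changes between 0.51 and 1.15. Each member is itself part of the mean profile, which raises its own r.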

How the data were processed

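Input RNA of 6 pooled fetal heart libraries was analysed; groups and numbers came from the titles. Salmon produced the deposited estimated counts and TPM of each transcript. The deposited series table holds a signal per 25-base bin; multiplied by 1 factor per library, 100.0% of its values were whole (tolerance 0.001), and these reads were used. The submitters' processing notes name HISAT2 2.2.1, Salmon 1.5.2, DESeq2 1.34.0 and GRCm39 without roles; the strand setting is not given in the sources used here. Classes, coordinates and sequences came from GENCODE M21 on GRCm38, whose reference bases are not those of FVB/NJ. Of 116747 transcripts 115685 matched by ID, 99.5% of them with equal length.

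Bins follow the merged exons of M21 in 98.1% of 47897 genes, 10 of 10 members included. Read positions sat 100 bases upstream in plus-strand genes and 147 bases in minus-strand genes; this was estimated from 2536 and 2521 genes against the coverage Salmon implies (mean r of 0.727 and 0.715, from 0.433 and 0.346 uncorrected) and corrected. Bins had to lie whole within a stretch, 10 bases from any coding base, and a stretch needed 2 bins.

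Reads per gene and per transcript were rounded and tested with edgeR 4.0.16 (quasi-likelihood, TMM, filterByExpr). Ratios of classes and of stretches (pseudocount 0.5, a mean of at least 10 reads in both parts) and bins (pseudocount 1, a mean of at least 10) were tested with limma 3.58.1. All p-values were adjusted over the whole table by Benjamini-Hochberg, with a threshold of 0.05. DESeq2 1.42.0 and limma-voom were alternatives. The biological coefficient of variation was 23.9%. Tests were checked on simulated data with known log2 changes of size 1 and 2. They recovered 34.0% and 87.8% of these for genes, and 9.38% and 61.9% for stretches. Recovery was 3.33% and 21.7% for transcripts, 2.11% and 18.9% for class ratios, and 0% and 1.14% for bins. For transcripts a missing call therefore says little about a missing change. The class-ratio simulation took its spread from unproductive reads set against levelled coding reads, and the bin simulation used a set dispersion not taken from the data. The recoveries of class ratios and bins thus need not match the real tests. A missing call there is not read as a missing change either. Depth set which stretches could be tested, and Salmon's assignment error is not part of any SE.

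The members and lists were chosen with earlier results of these data known. Named were all 10 members, the coding and the unproductive transcript of each with most reads, the transcripts called, the gene with the smallest p in each direction of each of 6 lists where past the threshold, and the 5 genes most like the members' profile. A list gene that the rule names is not reported here. The test of introns and poison exons was added after seeing the data. Libraries of 1 group differed by more than counting noise, so each counted as 1 replicate.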

Additional observations from a re-analysis of the deposited data

How the results depend on the processing

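Number of SR genes called higher: 4 in edgeR, 0 after correction for length and GC content, 0 with that correction and the replicate block, 0 with sham 2 and nano-TiO2 3 both out, and 2 to 5 without 1 library. Of the unproductive share 0 members were called, 1 from retained introns alone and 6 from bin reads, Srsf6 among them on few sham reads. For transcripts, 3 were called higher, but 1 without the filter (41 higher and 59 lower of all 72694), 10 with DESeq2 (4 lower; of all 30285, 2076 higher and 2597 lower), 15 on log2(TPM + 1) (of all 30409, 3271 higher and 69 lower), 0 with the replicate block, 0 with both libraries out and 0 to 0 without 1 library. Bins not divided by their gene gave 2 higher and 1 lower of 510 in place of 0, where 2790 higher and 10987 lower of all 245114 were called. For introns and poison exons 6 of 12 were called, 3 of 4 at a mean of at least 50 reads (66 higher of all 254), 1 of 12 with both libraries out (144 of all 1896), 0 of 12 centred on library medians (110 of 1896) and 1 to 6 without 1 library. Fewer samples or stretches entered some of these fits; otherwise the cause was not tested.

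Same-numbered libraries did not deviate together (r = -0.39, 0.02 and -0.08), so no pairing by number was seen. With 3 libraries per group this check cannot exclude one. With the number as a replicate block, 3 genes were called (Tra2a lost, edgeR adjusted p = 0.0622; of all 13930, 1262 higher and 795 lower), 7 stretches (of all 1896, 418 higher and 41 lower), 0 unproductive shares and 0 bins; sham 1 deviated most like nano-TiO2 2 and sham 3 most like nano-TiO2 1.

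Some log2 changes changed sign; the cause was not tested. At gene level, library totals gave Srsf3 0.29, Srsf4 0.10, Srsf7 0.19 and Srsf10 0.34, and log2(TPM + 1) and log2(TPM + 0.1) gave Srsf3 0.48 and 0.48, Srsf4 0.36 and 0.37, Srsf7 0.30 and 0.30, Srsf10 0.23 and 0.24, and Srpk3 0.18 and 0.19. Bin reads gave Srsf3 0.0080 and Srsf10 0.038, and the length and GC correction, without and with the block, Srsf4 0.086 and 0.089 and Srsf6 -0.41 and -0.41. For unproductive shares, both libraries out gave Srsf1 0.019, NMD alone Srsf2 -0.092 and Srsf11 -0.71, centring Srsf2 -0.059 and Srsf11 -0.22, and retained introns alone and bin reads Srsf6 1.13 and 1.25. For transcripts, log2(TPM + 1) gave Srsf6 ENSMUST00000017065 0.33, Srsf4 ENSMUST00000053819 0.35, Srsf7 ENSMUST00000063417 0.49 and Srsf7 ENSMUST00000234889 0.16, the last 0.075 with both libraries out. Centred, the Srsf11 introns of 2027 and 763 bases gave -0.16 and -0.30.

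Without 1 library, ranges crossed 0 for the genes Srsf10 (-0.19 to 0.18), Srsf3 (-0.15 to 0.0031) and Srsf6 (-0.063 to 0.15), the Srsf11 intron of 763 bases (-0.15 to 0.60), the shares of Srsf1 (-0.65 to 0.37) and Srsf11 (-0.0046 to 0.40), and the transcripts ENSMUST00000134824 (-0.11 to 1.45), ENSMUST00000126716 (-0.15 to 0.25), ENSMUST00000134943 (-0.47 to 0.81) and ENSMUST00000063417 (-0.22 to 0.035). Depth limits the poison exons of Srsf4, Srsf6, Srsf11 and Tra2a, which had under 10 reads per library.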
